A study of Rattus norvegicus with 12 samples.

Results

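The insulin-like growth factor (IGF) binding proteins Igfbp1 to Igfbp7 and the receptors Igf1r, Igf2r and Insr were examined in the renal cortex of lean, obese and SGLT2 inhibitor-treated obese rats. These 10 genes were chosen by name, and all 10 are among the 13151 genes in the table. RNA was sequenced from 12 male rats aged 32 weeks, 4 in each of 3 groups. The Zucker lean (ZL) rats were the controls, and the Zucker fatty (ZF) rats, which lack a functional leptin receptor, were the obese model. The ZF-SGLT2i rats were ZF rats that received canagliflozin, an inhibitor of the sodium–glucose cotransporter of the proximal tubule, in their food at 10 mg/kg/day, starting when they were 24 weeks old and lasting for 8 weeks. Neither ZL nor ZF rats received the drug. The study kept a cohort of ZL and ZF rats, which had earlier kidney biopsies. A separate, second cohort held treated and untreated ZF rats, which were offered the same food per body weight. The study's text on the sequencing calls the untreated obese rats ZF, the name used in the first cohort. A figure legend also calls them ZF-NT, the name of the untreated arm of the second cohort. The labels give no cohort. The ZL rats belong to the first cohort and the ZF-SGLT2i rats to the second, so between these cohort and group cannot be told apart. As the cohort of the untreated ZF rats is not known, the same may hold for their comparison with ZL rats or with ZF-SGLT2i rats. Between 8886901 and 12210257 reads lay on genes per ZL rat, between 8824980 and 11191377 per ZF rat, and between 8914666 and 10293049 per ZF-SGLT2i rat.

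IGF-1 and IGF-2 circulate and reach tissues bound to IGF binding proteins, which lengthen their half-life and hold them away from the receptors until a protease cuts the carrier. IGF-1 acts through the IGF-1 receptor, a tyrosine kinase closely related to the insulin receptor, and both receptors signal through IRS proteins to PI3K, AKT and mTOR, and restrain the FOXO transcription factors. In the kidney this axis is known for its links to tubular growth, glomerular filtration and gluconeogenesis. Igfbp1 is a classic insulin-repressed gene: its promoter carries an insulin response element at which FOXO1 activates transcription when insulin signalling is low. Each value below is an average over all the cells of the cortex, so fewer cells of a type and less RNA per cell cannot be told apart.

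Igfbp1 and Igfbp3 are adjacent coding genes on rat chromosome 14, on opposite strands, and between ZF-SGLT2i and ZL rats they were called in opposite directions. Their promoters are therefore shown, as the 250 bases before the start of each gene in RefSeq (build GRCr8), written 5′ to 3′ along the gene's own strand. The Igfbp1 promoter is chr14:86261027-86261276 on the plus strand and the Igfbp3 promoter is chr14:86277945-86278194 on the minus strand. Capitals mark the letters CAAAACA, which begin the insulin response element described for Igfbp1.
Igfbp1: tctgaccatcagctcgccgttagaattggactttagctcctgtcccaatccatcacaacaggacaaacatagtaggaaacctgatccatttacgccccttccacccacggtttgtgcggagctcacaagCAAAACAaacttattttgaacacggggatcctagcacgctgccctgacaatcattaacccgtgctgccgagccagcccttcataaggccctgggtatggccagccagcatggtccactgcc
Igfbp3: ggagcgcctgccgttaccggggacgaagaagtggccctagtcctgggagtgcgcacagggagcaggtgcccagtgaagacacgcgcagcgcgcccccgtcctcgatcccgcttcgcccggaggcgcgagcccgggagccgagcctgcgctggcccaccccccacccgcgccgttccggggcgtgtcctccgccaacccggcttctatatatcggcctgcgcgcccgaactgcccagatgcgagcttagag

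CAAAACA was searched on both strands in this window of 33469 rat promoters, and 5.46% held it. Among the 10 genes, the promoter of Igfbp1 alone held it, from position -121 to -115 relative to the gene's start. A FOXO-like motif, TGTTTAC, was in 3.21% of all promoters and in those of Igfbp6 and Insr, in Insr from position -100 to -94. The hypoxia response core ACGTG was in 16.6% of promoters and in those of Igfbp2, Igfbp7, Igf1r and Igf2r. The E-box CACGTG, which contains ACGTG, was in 5.59% of promoters and in those of Igfbp2, Igf1r and Igf2r. These matches describe the letters only. No match was found in the Igfbp3 window.

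Igfbp1 was the 1 member called in every comparison. ZF rats had more of it than ZL rats, and ZF-SGLT2i rats had more again. Igfbp2 and Igfbp5 were raised in ZF rats relative to ZL rats. After treatment, Igfbp1 alone passed the test against untreated ZF rats, and against ZL rats Igfbp1, Igfbp2 and Igfbp4 were higher and Igfbp3 and Igf2r lower. The values are read counts scaled by the authors to the library size (CPM), and groups were compared with limma on log2(CPM + 1), with p-values adjusted over all 11633 tested genes and a call made at an adjusted p under 0.05. Of the 10 genes, 9 passed the filter on low values and were tested. Igfbp6 did not pass it.

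In ZF against ZL rats, 3 of 9 tested members were called, all higher, where 18.8% of all tested genes were called, 8.19% higher and 10.6% lower. With treatment, in ZF-SGLT2i against ZF rats, 1 of 9 was called, higher, where 3.15% of all genes were called, 1.39% higher and 1.75% lower. Between ZF-SGLT2i and ZL rats, 5 of 9 were called, 3 higher and 2 lower, against 27.4% of all genes, 12.4% higher and 15.0% lower. The groups did not overlap for 2 members in ZF against ZL rats (Igfbp5 higher and Igfbp3 lower), beside 19.0% of all genes, 8.67% higher and 10.3% lower. In ZF-SGLT2i against ZF rats they did not overlap for 1 member, Igfbp1, beside 11.2% of all genes, 5.54% higher and 5.63% lower. In ZF-SGLT2i against ZL rats they did not overlap for 4 members (Igfbp1 and Igfbp4 higher, Igfbp3 and Igf2r lower), beside 28.0%, 12.9% higher and 15.1% lower. The median log2 fold change of the 9 members was -0.04, -0.08 and 0.05, beside -0.008, 0.006 and -0.00007 over all tested genes. The comparisons share groups, ZF rats in the first pair and ZL rats in the first and last, and so are not independent of each other.

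**Figure D1:**
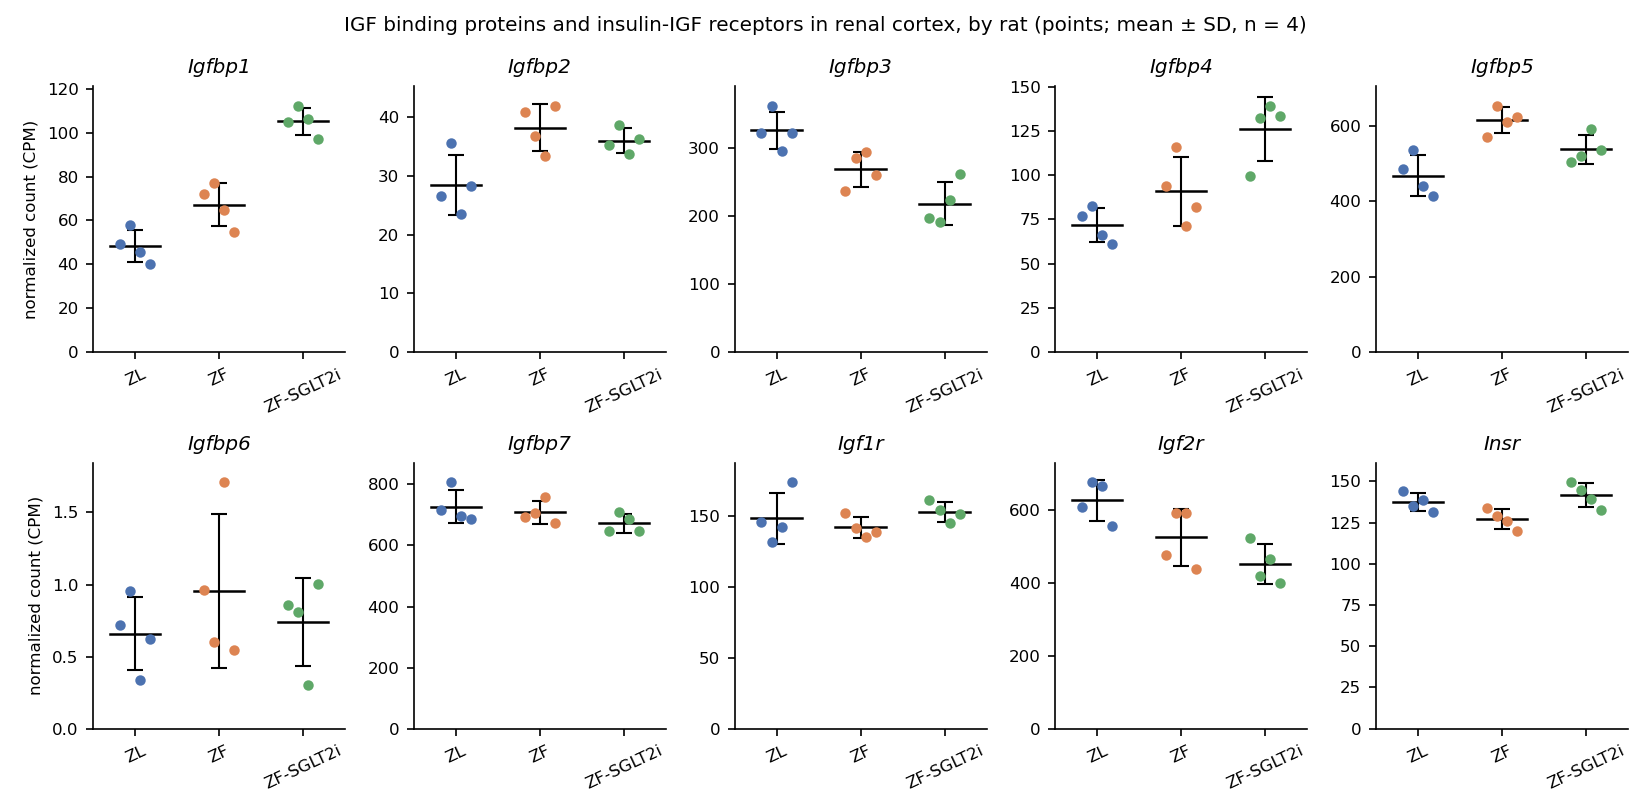
Normalized counts (CPM, linear axis from 0) of the 10 genes in each rat, with 1 point per rat and bars for the mean ± SD of 4 rats per group. The mean of Igfbp1 is 48.3 for ZL, 67.1 for ZF and 105 for ZF-SGLT2i rats, and that of Igfbp3 is 325, 268 and 218 in the same order.

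IGFBP-1 is a small secreted carrier whose production follows insulin and nutrient state within hours. Igfbp1 measured 49.4, 57.7, 45.6 and 40.4 CPM in the 4 ZL rats, 72.2, 76.9, 64.8 and 54.5 CPM in the ZF rats, and 105, 112, 106 and 97.1 CPM in the ZF-SGLT2i rats. Every ZF-SGLT2i rat was above every ZF rat, whereas the lowest ZF rat lay just under the highest ZL rat. The counts behind these values were 402 to 1112 reads per rat. Relative to the lean rats, Igfbp1 was 39.0% higher in ZF rats, with a log2 fold change of 0.47 ± 0.11 (SE, limma, adjusted p = 0.012). Relative to untreated ZF rats it was 56.6% higher in ZF-SGLT2i rats, with a log2 fold change of 0.65 ± 0.11 (limma, adjusted p = 0.0067) and a 95% interval of 0.41 to 0.89. The mean of ZF-SGLT2i rats was 2.18 times that of ZL rats, a log2 fold change of 1.12 ± 0.11 (limma, adjusted p = 2.2e-05). All 3 calls held in 23 of 23 alternatives, with the largest adjusted p at 0.042 for ZF against ZL and 0.035 for ZF-SGLT2i against ZF.

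IGFBP-3 is the main carrier of IGFs in plasma, where it forms a complex with the acid-labile subunit. Igfbp3 read 322, 361, 295 and 322 CPM in ZL rats, 236, 285, 293 and 260 CPM in ZF rats, and 197, 190, 224 and 261 CPM in ZF-SGLT2i rats. The ZF rats lay just below the ZL rats without overlap, and the highest ZF-SGLT2i rat overlapped the ZF rats. Its mean was 325 ± 27.3, 268 ± 25.8 and 218 ± 32.0 CPM (SD, n = 4) in the 3 groups. The steps from ZL to ZF (log2 fold change -0.28 ± 0.10, limma, adjusted p = 0.070) and from ZF to ZF-SGLT2i (-0.30 ± 0.10, adjusted p = 0.13) did not pass the threshold. The first passed without ZF rat 4 (adjusted p = 0.049) or without ZF-SGLT2i rat 6 (0.038), and the second passed with array quality weights (0.040). Against ZL rats, Igfbp3 fell by 0.58 on the log2 scale in ZF-SGLT2i rats (SE 0.10, limma, adjusted p = 0.0011), with no overlap between the groups.

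The ratio of Igfbp1 to its neighbour Igfbp3 within each rat does not depend on the scaling between libraries. This ratio of normalized counts, uncorrected for transcript length, had a mean of 0.148 ± 0.0155 for ZL, 0.252 ± 0.0446 for ZF and 0.492 ± 0.0927 for ZF-SGLT2i rats (SD, n = 4). ZL rats ranged from 0.125 to 0.160, ZF rats from 0.210 to 0.306 and treated rats from 0.372 to 0.590, so the groups did not overlap. As the mean of Igfbp1 rose and that of Igfbp3 fell over these same groups, dividing them widens the gap between groups. The ratio is therefore a description, and how many other gene pairs keep the groups apart was not examined. Igfbp2 and Igfbp5 are likewise adjacent coding genes on opposite strands, on chromosome 9. Their ratio was 0.0608 ± 0.00781, 0.0624 ± 0.00827 and 0.0671 ± 0.00749 in the same order, and its ranges overlapped between all groups.

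IGFBP-5 is a carrier that also binds to extracellular matrix, and IGFBP-2 is a carrier with some preference for IGF-2. Igfbp5 measured 485, 536, 440 and 414 CPM in ZL, 572, 654, 611 and 624 CPM in ZF, and 505, 520, 593 and 538 CPM in ZF-SGLT2i rats. All 4 ZF rats were above all 4 ZL rats, and the ZF-SGLT2i rats overlapped both of these groups. Its ZF mean was 31.3% above the ZL mean (log2 fold change 0.40 ± 0.083, limma, adjusted p = 0.0061), the smallest adjusted p of the members in that comparison. Between ZF-SGLT2i and ZF rats its log2 fold change was -0.19 ± 0.083, with a 95% interval of -0.37 to -0.01 (limma, adjusted p = 0.25). Between ZF-SGLT2i and ZL rats it was 0.21 ± 0.083 (adjusted p = 0.082), which passed without ZL rat 2 (0.023) and with quantile normalization (0.0085).

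Igfbp2 measured 26.6, 35.6, 23.5 and 28.3 CPM in ZL, 40.8, 36.8, 33.3 and 42.0 CPM in ZF, and 35.2, 38.8, 33.7 and 36.2 CPM in ZF-SGLT2i rats. ZL rat 2 was within the range of the other groups, and the other ZL rats were below it. Relative to ZL rats the gene was 34.2% higher in the ZF group (log2 fold change 0.42 ± 0.11, limma, adjusted p = 0.018) and 26.3% higher in the ZF-SGLT2i group (0.34 ± 0.11, adjusted p = 0.034). Between ZF-SGLT2i and ZF rats the log2 fold change was -0.08, with a 95% interval of -0.32 to 0.15 (limma, adjusted p = 0.76). The call against ZL rats in the ZF group was lost without ZL rat 1, ZF rat 2 or ZF rat 5 (adjusted p from 0.051 to 0.054). The call in ZF-SGLT2i rats was lost without ZL rats 1, 3 or 4 or ZF-SGLT2i rats 2, 3 or 6 (adjusted p from 0.057 to 0.095).

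IGFBP-4 restrains IGF action until it is cut by the protease PAPP-A. Igfbp4 stood at 77.0, 82.8, 66.2 and 61.3 CPM in ZL, 93.9, 116, 71.1 and 82.1 CPM in ZF, and 99.2, 132, 139 and 133 CPM in ZF-SGLT2i rats. The ZF rats spread over both other groups, and ZF-SGLT2i rat 2 was the lowest treated rat and within the ZF range. Its log2 fold change was 0.32 ± 0.14 in ZF against ZL rats (limma, adjusted p = 0.14) and 0.48 ± 0.14 in ZF-SGLT2i against ZF rats (adjusted p = 0.095). The first difference passed without ZF rat 4 (limma, adjusted p = 0.046), and was 0.20 without ZF rat 3 (adjusted p = 0.37). The second passed without ZF rat 3 (0.047) and with DESeq2 (0.043). In ZF-SGLT2i against ZL rats Igfbp4 was 75.3% higher, a log2 fold change of 0.80 ± 0.14 (limma, adjusted p = 0.0014), with no overlap.

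IGFBP-7 binds IGFs weakly, lies in vascular basement membranes and is known as a urinary marker of tubular stress. Igfbp7 ranged from 688 to 807 CPM in ZL, from 674 to 760 CPM in ZF and from 646 to 708 CPM in ZF-SGLT2i rats, and all 3 ranges overlapped. The 95% intervals of its log2 fold change were -0.18 to 0.11 for ZF against ZL, -0.22 to 0.07 for ZF-SGLT2i against ZF and -0.26 to 0.04 for ZF-SGLT2i against ZL, with adjusted p-values of 0.76, 0.63 and 0.25 (limma). Igfbp6, a carrier that prefers IGF-2, was near the detection limit, with 3 to 20 reads per rat. Its values were 0.340 to 0.954 CPM in ZL, 0.547 to 1.71 CPM in ZF and 0.302 to 1.00 CPM in ZF-SGLT2i rats. It was not tested, and at this depth 3 reads correspond to between 0.256 and 0.340 CPM.

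Of the 3 receptor genes, limma called Igf2r, lower, in ZF-SGLT2i against ZL rats. In each of the other comparisons limma, edgeR and DESeq2 called 0 of the 3, and 1 had an unadjusted p under 0.05. The IGF-2 receptor, also the cation-independent mannose 6-phosphate receptor, removes IGF-2 from the cell surface and sorts lysosomal enzymes. Igf2r measured 607, 676, 665 and 555 CPM in ZL, 476, 592, 590 and 439 CPM in ZF, and 524, 418, 465 and 401 CPM in ZF-SGLT2i rats. All treated rats were below all ZL rats, and the ZF rats overlapped both. Igf2r fell by 0.47 on the log2 scale in ZF-SGLT2i against ZL rats (SE 0.11, limma, adjusted p = 0.0072), and this call was lost with quantile normalization (-0.27, adjusted p = 0.052). Its log2 fold change was -0.26 ± 0.11 in ZF against ZL (adjusted p = 0.12) and -0.21 ± 0.11 in ZF-SGLT2i against ZF rats (adjusted p = 0.37).

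Igf1r, the signalling receptor for IGF-1, measured 146, 131, 142 and 173 CPM in ZL, 152, 141, 135 and 138 CPM in ZF, and 161, 154, 144 and 151 CPM in ZF-SGLT2i rats. ZL rat 4 was the highest of all 12, and the 3 groups overlapped. The 95% interval of its log2 fold change was -0.22 to 0.11 in ZF against ZL, -0.06 to 0.27 in ZF-SGLT2i against ZF and -0.11 to 0.21 in ZF-SGLT2i against ZL rats (limma, adjusted p = 0.65, 0.52 and 0.67). Insr, the insulin receptor, measured 144, 135, 139 and 131 CPM in ZL, 134, 129, 126 and 120 CPM in ZF, and 149, 145, 139 and 133 CPM in ZF-SGLT2i rats. Its lowest treated rat lay within the range of the ZF rats. The log2 fold change of Insr was -0.11 ± 0.055 in ZF against ZL rats (limma, adjusted p = 0.19) and 0.15 ± 0.055 in ZF-SGLT2i against ZF rats, with a 95% interval of 0.03 to 0.27 (adjusted p = 0.17). Between ZF-SGLT2i and ZL rats the interval was -0.07 to 0.16 (adjusted p = 0.59).

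**Figure D2:**
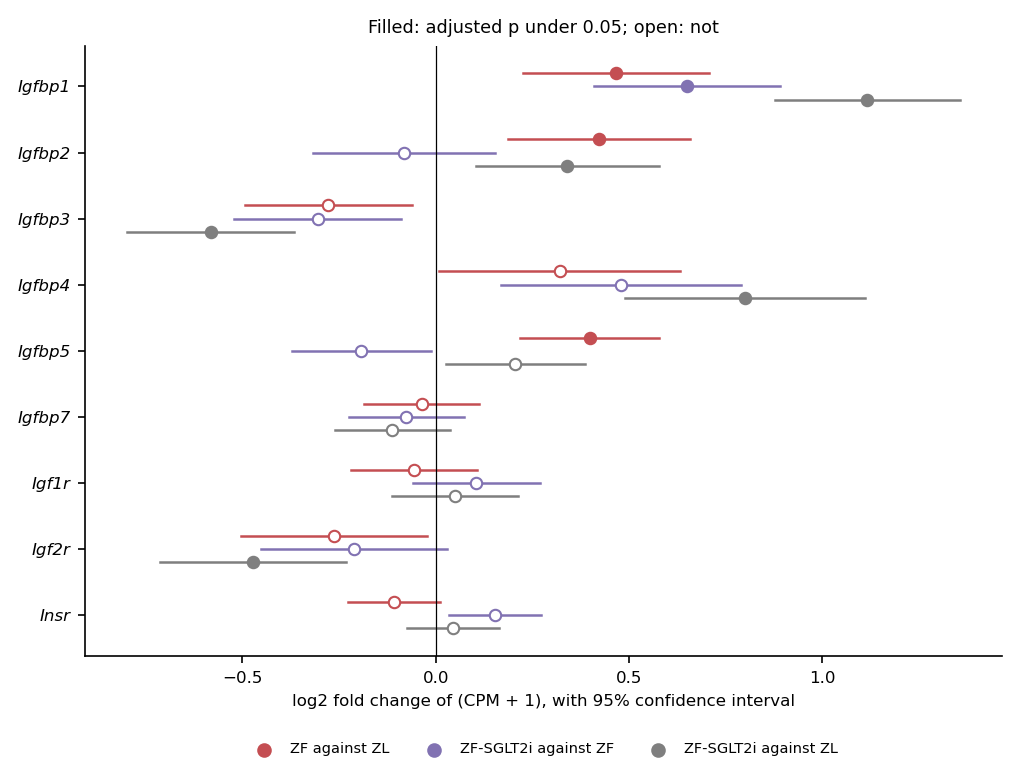
Log2 fold changes of the 9 tested genes in the 3 comparisons, with points for the limma estimate and bars for its 95% interval; filled points mark an adjusted p under 0.05. Igfbp1 lies to the right of 0 in all 3 comparisons, and the intervals of Igfbp7 and Igf1r include 0 in each.

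Within the 12 rats, the order of the group means was ZL, ZF, ZF-SGLT2i for Igfbp1 and Igfbp4 and the reverse for Igfbp3, Igfbp7 and Igf2r. For Igfbp2, Igfbp5 and Igfbp6 the order was ZL, ZF-SGLT2i, ZF, and for Igf1r and Insr it was ZF, ZL, ZF-SGLT2i. Neighbouring groups in these orders were apart in 2 cases: ZF and ZF-SGLT2i for Igfbp1, and ZF and ZL for Igfbp3. All other neighbours overlapped.

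By the root mean square difference of centred log2 values over the 12 rats, the 3 genes with the pattern most like that of Igfbp1 were Slc6a9 (0.159), Cpt1a (0.161) and Rbm3 (0.166), against a median of 0.508 over all tested genes. Cpt1a, the enzyme that passes long-chain fatty acids into mitochondria, measured 238 ± 15.6, 336 ± 20.9 and 492 ± 19.7 CPM in ZL, ZF and ZF-SGLT2i rats (SD, n = 4). Slc6a9, a glycine transporter, measured 5.85 ± 1.26, 9.37 ± 0.926 and 13.5 ± 1.34 CPM in the same order. Rbm3, a cold-inducible RNA-binding protein, had means of 37.3, 52.5 and 71.9 CPM. For Igfbp5 the closest were Rtn4 (0.0717), Osbpl5 (0.0724) and Nfkb1 (0.0798), against a median of 0.257. Rtn4, a reticulon of the endoplasmic reticulum, measured 121 ± 13.4, 156 ± 4.20 and 144 ± 6.61 CPM. These genes were picked for their likeness over the same rats, so the likeness is a description.

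The ligands and extracellular regulators of the axis were read from the same fit. Transcripts of Igf1, which encodes IGF-1, were lower in obese rats, and those of Pappa, which encodes the protease that cuts IGFBP-4, were higher. Igf1 had 29 to 121 reads per rat, and the level of IGF-1 protein in the cortex cannot be read from these transcripts. Igf1 measured 8.26, 7.28, 8.73 and 10.8 CPM in ZL, 4.12, 4.91, 5.73 and 3.17 CPM in ZF, and 3.14, 3.13, 4.73 and 3.90 CPM in ZF-SGLT2i rats. Every ZF and every treated rat lay below every ZL rat. Igf1 fell by 0.84 on the log2 scale in ZF against ZL rats (SE 0.16, limma, adjusted p = 0.0043) and by 1.05 in ZF-SGLT2i against ZL rats (adjusted p = 6.0e-04). Between ZF-SGLT2i and ZF rats the log2 fold change was -0.21, with a 95% interval of -0.56 to 0.15 (adjusted p = 0.57). Igf2 was at 2.90 ± 0.702, 3.52 ± 0.524 and 2.78 ± 0.230 CPM in the 3 groups (SD, n = 4), with 24 to 44 reads per rat, and passed in no comparison. The 95% interval of its log2 fold change was -0.09 to 0.53 in ZF against ZL and -0.56 to 0.06 in ZF-SGLT2i against ZF rats. The insulin genes Ins1 and Ins2 were not analysed here.

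Pappa measured 61.6, 66.0, 53.2 and 46.5 CPM in ZL, 95.7, 99.0, 60.9 and 115 CPM in ZF, and 86.4, 91.9, 81.4 and 109 CPM in ZF-SGLT2i rats. ZF rat 4 was within the ZL range, and the other obese rats, treated or not, were above it. Relative to ZL rats, Pappa was 62.9% higher in ZF rats (log2 fold change 0.67 ± 0.16, limma, adjusted p = 0.014) and 62.1% higher in ZF-SGLT2i rats (0.69 ± 0.16, adjusted p = 0.0076). With treatment its 95% interval ran from -0.33 to 0.38 against ZF rats. Adamts1, a secreted metalloproteinase with thrombospondin motifs, measured 115, 69.0, 86.0 and 91.8 CPM in ZL, 211, 124, 175 and 112 CPM in ZF, and 105, 102, 87.4 and 67.5 CPM in ZF-SGLT2i rats. Its ZF mean was 71.8% above the ZL mean (log2 fold change 0.75 ± 0.20, limma, adjusted p = 0.020, and 0.060 without ZF rat 2). All treated rats lay below all ZF rats for Adamts1, with a log2 fold change of -0.75 ± 0.20 (limma, adjusted p = 0.062), which passed in 2 of 23 alternatives.

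Igfals encodes the acid-labile subunit of the plasma complex of IGFBP-3. It measured 23.2 ± 2.87 CPM in ZL, 24.3 ± 1.93 CPM in ZF and 18.3 ± 2.29 CPM in ZF-SGLT2i rats (SD, n = 4). Its log2 fold change was -0.40 ± 0.11 in ZF-SGLT2i against ZF rats (limma, adjusted p = 0.061), with no overlap. This difference passed in 5 of 23 alternatives. Against ZL rats the treated rats were at -0.32 ± 0.11 (adjusted p = 0.036), a call lost without ZL rats 1, 2 or 3 or ZF-SGLT2i rats 2, 3 or 6 (0.057 to 0.10) and with only the 2 groups compared (0.057). The PAPP-A inhibitors Stc1 and Stc2, the proteases Htra1 and Htra3 and the IGFBP-domain protein Esm1 passed in no comparison of the main fit. Their log2 fold changes ran from -0.41 (Esm1, ZF-SGLT2i against ZL) to 0.36 (Htra3, ZF against ZL). In ZF-SGLT2i against ZL, Esm1 passed in 2 and Stc1 in 1 of 23 alternatives. In ZF-SGLT2i against ZF, Stc1 passed in 1 of 23 and Htra3 in 1 of 22, and Htra3 in 1 of 22 in ZF against ZL. Of the 10 extracellular regulators in the table, 8 were tested, and 2 were called in ZF against ZL, 25% beside 18.8% of all genes. Between treated and untreated ZF rats, where 3.15% of all genes were called, limma called 0 of 8 and edgeR 0, DESeq2 called 2, and 3 had an unadjusted p under 0.05. Igfbpl1 and Kazald1, which also carry an IGFBP domain, had 0 to 7 and 4 to 12 reads per rat and were not tested.

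**Figure D3:**
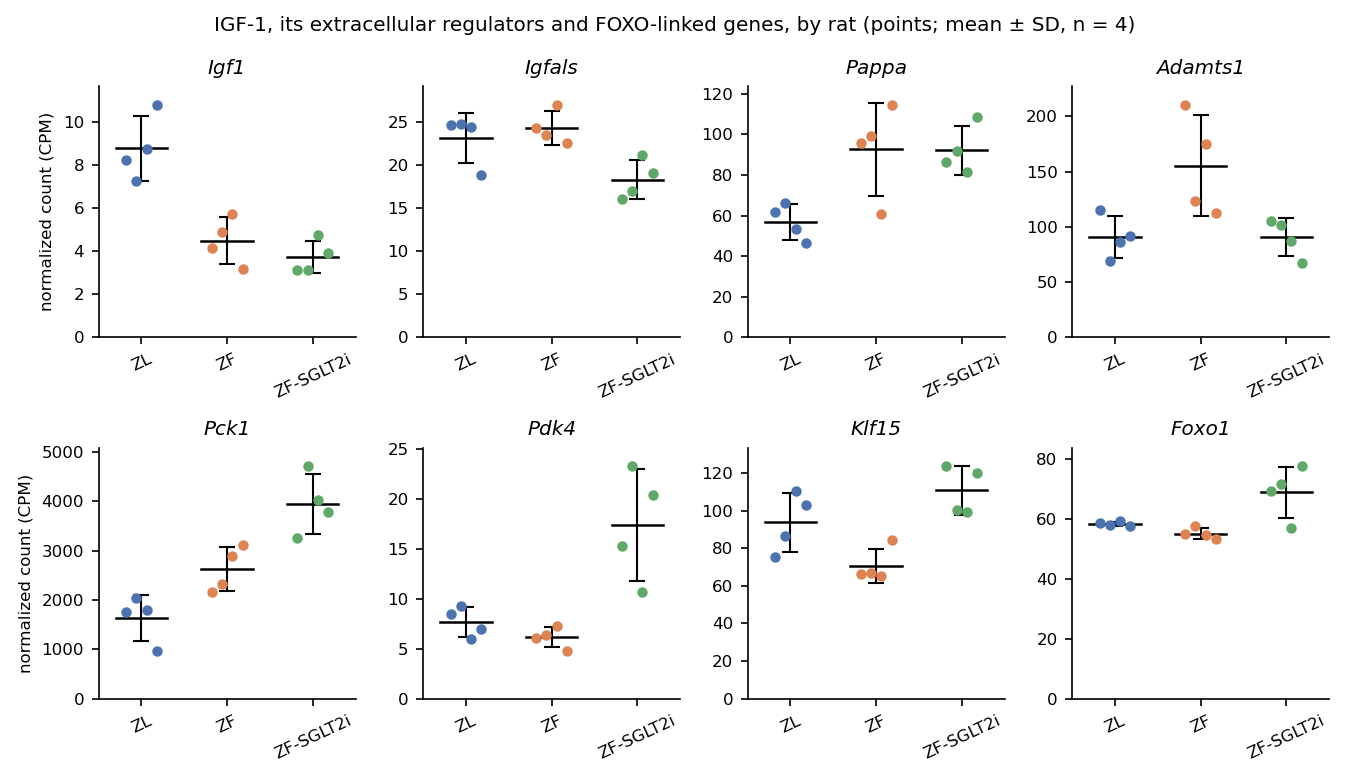
Normalized counts (CPM, linear axes from 0) of Igf1, Igfals, Pappa, Adamts1, Pck1, Pdk4, Klf15 and Foxo1 in each rat, with 1 point per rat and bars for the mean ± SD of 4 rats. Igf1 is lower in both obese groups, and Pdk4 is higher in each ZF-SGLT2i rat than in every ZF rat.

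A list of 85 other genes of insulin and IGF signalling was examined. The table holds 76 of them, and 74 passed the filter. In ZF against ZL, 9 were called higher and 7 lower, 21.6% of the 74 beside 18.8% of all genes. With treatment, 4 were called higher and 1 lower than in ZF rats, 6.76% beside 3.15%. Between ZF-SGLT2i and ZL rats, 12 were called in each direction, 32.4% beside 27.4%. Their median log2 fold changes were 0.01, -0.01 and 0.01.

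Among receptor adaptors and inhibitors, 6 of 15 were called in ZF against ZL, 3 higher and 3 lower, beside 18.8% of all genes, 8.19% higher and 10.6% lower. Shc1, an adaptor to the RAS pathway, rose from 66.8 ± 3.53 to 81.1 ± 3.20 CPM (SD, n = 4; log2 fold change 0.28 ± 0.053, limma, adjusted p = 0.0041), with no overlap. Grb7, an adaptor that binds activated receptor kinases, fell from 58.7 ± 1.53 to 45.3 ± 2.75 CPM (log2 fold change -0.37 ± 0.075, adjusted p = 0.0053). It measured 64.7, 66.7, 58.9 and 52.2 CPM in the treated rats, all above all ZF rats, a log2 fold change of 0.41 ± 0.075 (adjusted p = 0.0094). Grb14, an inhibitor of the insulin receptor kinase, was lower than in ZL rats by 29.6% in ZF (adjusted p = 0.015) and by 29.9% in ZF-SGLT2i rats (adjusted p = 0.010).

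Irs2, a docking protein of both receptors, measured 239, 134, 247 and 418 CPM in ZL rats, 167, 130, 130 and 124 CPM in ZF rats and 158, 139, 138 and 131 CPM in treated rats. ZL rat 2 lay among the obese rats, and ZL rat 4 was far above the other ZL rats. Its log2 fold change in ZF against ZL was -0.80 ± 0.24 (limma, adjusted p = 0.031), and the call was lost without ZL rats 1, 3 or 4 or ZF rats 3, 4 or 5 (0.053 to 0.076), with quantile normalization (0.053) and with only the 2 groups compared (0.075). Irs1, the other main docking protein, was at 68.3 ± 5.25, 66.9 ± 12.3 and 84.1 ± 5.13 CPM (SD, n = 4). Its difference between ZF-SGLT2i and ZF rats had an adjusted p of 0.098 (limma) and passed in 3 of 23 alternatives. Between ZF-SGLT2i and ZL rats Irs1 was called higher (log2 fold change 0.30, adjusted p = 0.047), a call lost when any of 8 rats was left out (0.051 to 0.12). Socs3, a feedback inhibitor of cytokine receptors, measured 1.53 ± 0.470 CPM in ZL and 4.01 ± 1.94 CPM in ZF rats (limma, adjusted p = 0.023, and 0.052 to 0.065 without ZL rat 1, ZL rat 2 or ZF rat 2). Ptprf, a receptor phosphatase, was 15.3% higher in ZF rats than in ZL rats (adjusted p = 0.029), a call lost without ZL rats 1, 3 or 4 or ZF rats 2, 3 or 5 (0.054 to 0.083) and with only the 2 groups compared (0.067). Socs2, an inhibitor of growth hormone signalling, was the only gene of the list called lower with treatment, from 2.91 ± 0.470 to 1.53 ± 0.336 CPM with 13 to 37 reads per rat (adjusted p = 0.028). That call was lost without ZF rats 2, 3 or 4 or ZF-SGLT2i rats 2, 3 or 6 (0.055 to 0.089).

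Of 16 PI3K and AKT genes, 2 were called, both higher, in ZF against ZL, 12.5% beside 18.8% of all genes. Akt1, which encodes a kinase downstream of PI3K, rose by 17.7% (log2 fold change 0.23 ± 0.051, limma, adjusted p = 0.0084), from 66.8 to 72.5 CPM in ZL rats to 76.9 to 85.0 CPM in ZF rats. Between treated and untreated ZF rats, limma, edgeR and DESeq2 each called 0 of the 16, and 1 had an unadjusted p under 0.05, where limma called 3.15% of all genes and 1996 of 11633 had such a p. In the mTOR complex 1 arm, 1 of 12 was called in ZF against ZL, 8.33% beside the same 18.8%. It was Eif4ebp1, which encodes a repressor of translation that mTOR inactivates. It rose from 5.07 ± 0.139 to 7.39 ± 0.534 CPM (SD, n = 4; limma, adjusted p = 0.0062). With treatment, 0 of 12 were called by limma, edgeR or DESeq2, and 0 had an unadjusted p under 0.05, beside the same background. Mtor measured 235 ± 18.7, 257 ± 12.1 and 238 ± 3.13 CPM, and Rps6kb1, the S6 kinase, 31.0 ± 3.35, 31.7 ± 2.51 and 34.2 ± 2.31 CPM in the 3 groups. These are transcript levels, and the activity of the kinases was not measured in these files.

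The FOXO factors and their known targets held 3 of the 5 genes of the signalling list called in ZF-SGLT2i against ZF, all higher, out of 14 tested, where 1.39% of all genes were called higher. The list itself was not tested. In ZF against ZL, Pck1 was called higher and Cited2 and Klf15 lower, beside 8.19% and 10.6% of all genes. There 4 of the 14 had a positive and 10 a negative log2 fold change, with a median of -0.16. In ZF-SGLT2i against ZF, 10 were positive and 4 negative, with a median of 0.25. In ZF-SGLT2i against ZL, 7 of the 14 were called, 4 higher and 3 lower, beside 12.4% and 15.0% of all genes. Pdk4, which shifts fuel use from glucose to fat, measured 6.14, 6.41, 7.26 and 4.81 CPM in ZF and 15.3, 23.3, 10.7 and 20.4 CPM in ZF-SGLT2i rats, without overlap. Its log2 fold change was 1.32 ± 0.20 (limma, adjusted p = 0.0032). Klf15, a transcription factor of fasting metabolism, was 56.7% higher in ZF-SGLT2i than in ZF rats (log2 fold change 0.64 ± 0.12, adjusted p = 0.011). Klf15 was 24.7% lower in ZF than in ZL rats (adjusted p = 0.036), a call lost without ZL rats 3 or 4 or ZF rats 2, 3 or 4 (0.071 to 0.099), with quantile normalization (0.067), with only the 2 groups compared (0.060) and with array quality weights (0.066). Foxo1 measured 58.3 ± 0.743, 55.0 ± 1.78 and 68.7 ± 8.61 CPM in the 3 groups (SD, n = 4), with an adjusted p of 0.045 between ZF-SGLT2i and ZF rats. That call held without ZL rat 4 or ZF-SGLT2i rat 4, and was lost without any other single rat (0.053 to 0.13), with quantile normalization (0.053), without Rn28s and Rn45s in the scaling (0.051) and with only the 2 groups compared (0.071).

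Pck1, the rate-limiting enzyme of gluconeogenesis and, like Igfbp1, an insulin-repressed gene, followed the same order of group means as Igfbp1. Most of its list did not rise in ZF against ZL, where 10 of the 14 tested genes were negative. Pck1 measured 1640 ± 463, 2621 ± 446 and 3938 ± 607 CPM in ZL, ZF and ZF-SGLT2i rats (SD, n = 4), and no 2 groups overlapped. Its log2 fold change was 0.71 ± 0.21 in ZF against ZL (limma, adjusted p = 0.029), a call lost without ZF rat 4 (0.055) or ZF rat 5 (0.079) and with only the 2 groups compared (0.059). It was 0.59 ± 0.21 in ZF-SGLT2i against ZF (limma, adjusted p = 0.15), which passed in 3 of 23 alternatives. The treated mean was 140% above the ZL mean (adjusted p = 6.3e-04). Cited2, a transcriptional co-regulator, fell by 0.44 on the log2 scale in ZF against ZL rats (SE 0.088, adjusted p = 0.0045). Of the receptors and binding partners related to the members, Prlr, the prolactin receptor, was called in ZF against ZL, at 104 ± 65.0 CPM in ZL and 42.1 ± 12.2 CPM in ZF rats (adjusted p = 0.033). The Prlr call was lost without ZL rats 1 or 4 or ZF rats 3 or 5 (0.065 to 0.092) and with only the 2 groups compared (0.075). In ZF-SGLT2i against ZL rats Prlr fell by 1.67 on the log2 scale (adjusted p = 0.0029), which held in 23 of 23 alternatives, and 4 of the 7 genes of this list were called (Insrr, Lrp2, Ghr and Prlr), 1 higher and 3 lower, where 27.4% of all genes were called.

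**Figure D4:**
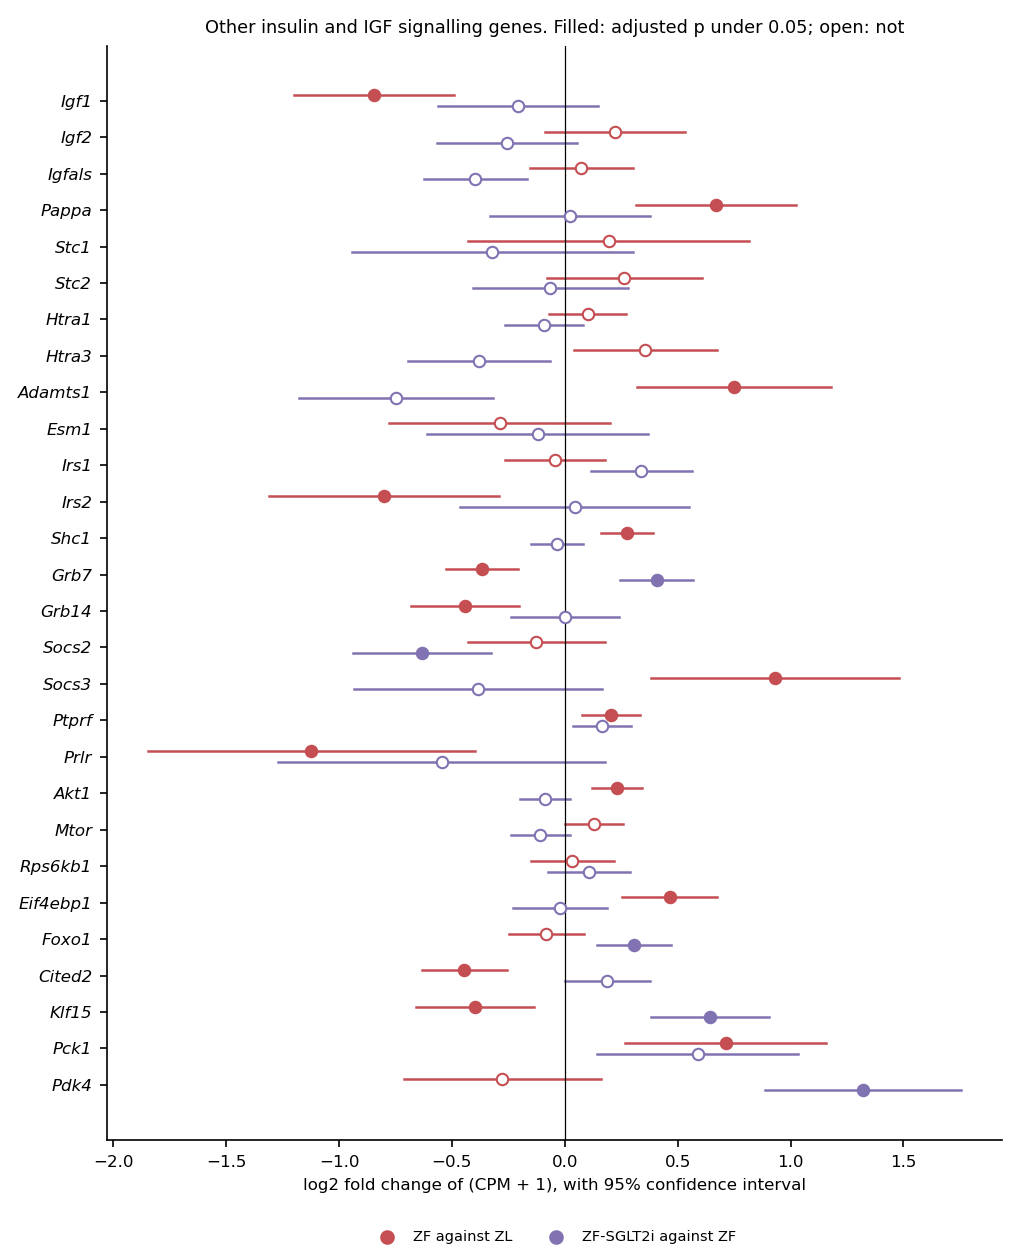
Log2 fold changes of the further named genes of insulin and IGF signalling for ZF rats against ZL rats and for treated against untreated ZF rats, with points for the limma estimate and bars for the 95% interval; filled points mark an adjusted p under 0.05. Pdk4 (1.32) and Klf15 (0.64) lie furthest to the right among the genes called in ZF-SGLT2i against ZF, and Socs2 (-0.63) to the left.

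Markers of the cells of the cortex moved between the same groups, and their part in the results above was not tested. The tissue carried its defining genes, such as Lrp2 of the proximal tubule (10737 ± 422 CPM in ZL, 7835 ± 1228 CPM in ZF and 6440 ± 1017 CPM in ZF-SGLT2i rats; SD, n = 4) and Podxl of podocytes (747 ± 98.3, 988 ± 127 and 1073 ± 129 CPM). Of 5 inner medulla and urothelium markers in the table, 4 (Slc14a2, Upk3a, Upk2 and Psca) were at 0 in at least 1 rat, and the list summed to at most 4.24 CPM. Beside the values of Igf2r, which was called in ZF-SGLT2i against ZL rats alone, the summed proximal tubule markers were 26649, 25720, 27561 and 23426 CPM in ZL, 19954, 20788, 24752 and 18780 CPM in ZF, and 20176, 18229, 19392 and 15694 CPM in ZF-SGLT2i rats, and 3 of 8 were called lower in ZF-SGLT2i against ZL, where 15.0% of all genes were.

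Of 8 injured tubule markers, 6 were called higher in ZF than ZL rats, where 8.19% of all genes were, and Spp1 had the highest CPM. Vcam1 (log2 fold change 0.17, adjusted p = 0.52) and Sox9 (-0.60, adjusted p = 0.13) did not pass. Their sum was 559, 515, 463 and 557 CPM in ZL, 2096, 850, 1614 and 724 CPM in ZF, and 1316, 1280, 959 and 582 CPM in ZF-SGLT2i rats. Between treated and untreated ZF rats 1 of 8 was called, Vcam1, lower, where 1.75% of all genes were. Between ZF-SGLT2i and ZL rats 5 were called higher and Vcam1 lower, beside 12.4% and 15.0% of all genes. Of 6 fibroblast markers, 3 were called lower with treatment (Col1a2, Col3a1 and Dcn), where 1.75% of all genes were. Col1a1 (limma, adjusted p = 0.056), Fbln1 (0.057) and Pdgfra (0.14) did not pass. In ZF-SGLT2i against ZL, 4 of 6 were called lower (Col3a1, Dcn, Pdgfra and Fbln1), beside 15.0% of all genes. In ZF against ZL, 1 of 6 was called, Col1a1, higher, beside 8.19%. The 7 fibroblast markers with values, tested or not, summed to 545, 530, 389 and 553 CPM in ZL and 742, 530, 741 and 455 CPM in ZF rats. In ZF-SGLT2i rats the sum was 393, 340, 363 and 327 CPM. Pdgfra had the highest CPM of them over the 12 rats, and Col3a1 (144 CPM) was above it (133 CPM) in ZF rats. Over the same groups, Igfbp4 had means of 71.8, 90.8 and 126 CPM.

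Collecting duct markers summed to 1585, 2127, 1759 and 1356 CPM in ZL, 1748, 2060, 1466 and 2193 CPM in ZF, and 2486, 2605, 2534 and 2836 CPM in ZF-SGLT2i rats. Aqp2 had the highest CPM of them over the 12 rats, below Slc4a1 in ZL rats (443 and 512 CPM). Aqp2 was also the 1 of 7 called in ZF-SGLT2i against ZF, higher (edgeR called 0 of 7, DESeq2 3, and 5 had an unadjusted p under 0.05). In ZF-SGLT2i against ZL, 5 of 7 were called higher, where 12.4% of all genes were. Among podocyte markers, 4 of 8 were called higher in ZF rats and 5 of 8 in ZF-SGLT2i rats, both relative to ZL rats, beside 8.19% and 12.4% of all genes. They summed to 1345, 1703, 1279 and 1394 CPM in ZL, 1914, 1867, 1590 and 2034 CPM in ZF, and 1594, 1927, 2040 and 2023 CPM in ZF-SGLT2i rats. Reads on the ribosomal RNA genes Rn28s and Rn45s made up 11.5% to 15.2% of the total in treated rats, beside 7.25% to 12.0% in lean and 8.82% to 12.0% in untreated obese rats, and the 3 Igfbp1 calls held when both were left out of the scaling.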

How the data were processed

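RNA of whole renal cortex from 12 rats was depleted of ribosomal RNA and sequenced with a stranded kit. The submitters' processing notes name Trimmomatic 0.38, Bowtie2, RSEM 1.3.0, edgeR and the build rn6; use of strand in counting is not given in the sources used here. The deposited signal values are whole reads times a constant per rat (100% within 0.001), equal to the CPM of edgeR with TMM factors (largest relative gap 3.15e-16), and 1 read is worth 0.0855 to 0.113 CPM. This normalization was done by the authors. edgeR on the recovered reads called 2193, 373 and 3218 genes for ZF against ZL, treatment against ZF and treatment against ZL. Limits stated in reads cover counting error only. The test took the 11633 genes that reached a value of 1 in 4 or more rats (1518 did not), using limma 3.58.1 in R 4.3.3 (lmFit, eBayes with trend, two-sided) on log2(value + 1), 12 rats in a single fit, with Benjamini-Hochberg adjustment over all tested genes. Adding 1 understates the fold change of low genes. Groups follow the labels, replicates are separate rats, and p-values measure the spread between them. No 2 rats of a group were duplicates (chi-square per gene 5.43 to 50.1).

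The 10 genes, the lists and the markers were chosen with earlier results of these data known. Named are the 10 genes, the ligands and extracellular regulators in the table, up to 5 called genes per further list and comparison, Irs1, Irs2, Mtor, Rps6kb1, the 3 genes most like Igfbp5 and Igfbp1, and the most abundant and absent markers. Of the listed pathway genes, Ins1, Ins2, Pappa2, Itgav, Irs4, Deptor, Rictor, Foxo6 and G6pc1 were not analysed here. Promoters and gene neighbours are from RefSeq tables of GRCr8, in which all 10 genes were found. The counts were made on rn6, and no rn6 gene coordinates are given. Transcript lengths were not used. Ratios between genes and the markers named as most abundant therefore rest on CPM uncorrected for length. A planned search of protein motifs was not run, and some genes counted in the lists are not reported here.

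In simulated data for ZF against ZL (11651 genes, 200 changed), limma called 194, 188 of them rightly, with 99% of 4-fold and 89% of 2-fold changes found, and 0 of 11654 without change. Alternatives were a pseudocount of 0.1, no filter, a mean of at least 10, median-ratio size factors, quantile normalization, scaling without Rn28s and Rn45s, only the 2 groups compared, a replicate block, array quality weights, edgeR 4.0.16 and DESeq2 1.42.0 on the recovered reads, and each rat left out.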

Additional observations from a re-analysis of the deposited data

Results flagged for a closer look

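In 7 of 120 groups of 4 rats, over 40 named genes, 1 rat stood far from the other 3, where chance at 1 in 20 gives 6. None of the 10 binding protein and receptor genes is among them. Igfals was 18.8 CPM in ZL rat 4 against 24.4 to 24.8 CPM in the other ZL rats, and Grb14 was 8.84 CPM in ZL rat 3 against 7.20 to 7.33 CPM. In ZF rat 2, Irs2 was 167 CPM against 124 to 130 CPM and Rps6kb1 was 28.0 CPM against 32.5 to 33.3 CPM in the other ZF rats. In ZF rat 4, Ptprf was 453 CPM against 490 to 498 CPM. In ZF rat 5, Klf15 was 84.3 CPM against 65.0 to 66.8 CPM and Kazald1 was 0.547 CPM against 1.03 to 1.10 CPM.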

How the results depend on the processing

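With the replicate block, the members called fell from 3 to 1 in ZF against ZL and from 5 to 3 in ZF-SGLT2i against ZL, all genes from 2185 to 807, from 366 to 223 and from 3184 to 1502, and the signalling list from 16 to 8 and from 24 to 11 against ZL. The member calls that did not pass with it were Igfbp2 (adjusted p = 0.13) and Igfbp5 (0.078) in ZF against ZL and Igfbp2 (0.15) and Igf2r (0.067) in ZF-SGLT2i against ZL. Of the signalling calls described, those that did not pass were Irs2 (0.19), Prlr (0.19), Pck1 (0.17), Ptprf (0.12), Socs3 (0.073), Grb14 (0.062) and Eif4ebp1 (0.056) in ZF against ZL, Foxo1 (0.19), Socs2 (0.13) and Pdk4 (0.066) in ZF-SGLT2i against ZF, and Igfals (0.19) and Grb14 (0.059) in ZF-SGLT2i against ZL. The rat numbers do not pair the samples: deviations of same-numbered rats correlated at -0.376 to 0.253 (9 pairs, 2 over 0.1). Array quality weights gave 2 members, 689 genes and 12 of the signalling list in ZF-SGLT2i against ZF, and DESeq2 gave 2, 641 and 9.

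Leaving out each rat gave 2 to 5, 1 to 2 and 4 to 6 members for ZF against ZL, for treatment against ZF and for treatment against ZL, in that order, 1389 to 2453, 176 to 570 and 2241 to 3302 genes, and 11 to 18, 3 to 9 and 14 to 25 of the signalling list. The members called moved by over 1.5 times without ZF rat 4 (5 in ZF against ZL) and without ZF rat 3 (2 in ZF-SGLT2i against ZF). In ZF against ZL all genes fell to 1389 without ZL rat 1, 1451 without ZF rat 2 and 1426 without ZF rat 3. In ZF-SGLT2i against ZF they were 207, 184, 187 and 570 without ZF rats 2, 3, 4 and 5, and 176, 210 and 182 without treated rats 3, 4 and 6. The signalling list was 3 there without ZF rats 2 or 3 or treated rats 2, 3 or 6, 8 without ZF rat 5 and 9 without ZL rat 4, and in ZF-SGLT2i against ZL 14 without ZL rat 1 and 15 without treated rat 6.

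Signs reversed, none of them called, for Igfbp7 in ZF against ZL with quantile normalization (0.19, adjusted p = 0.051) and without ZL rat 2 (0.015, the highest without a rat, where the lowest was -0.071), for Igf1r with quantile normalization (0.033) and without ZL rat 4 (0.022, where the lowest was -0.11), and in ZF-SGLT2i against ZL for Igfbp7 with quantile normalization (0.13) and Igf1r without ZL rat 2 (-0.0055, where the highest was 0.13). Higher calls in ZF against ZL went from 43.6% to 53.9% with quantile normalization, and in ZF-SGLT2i against ZF from 44.3% to 56.1% without ZF rat 4. The causes were not tested. Depth limits Igfbp6 and Igfbpl1, which had 3 to 20 and 0 to 7 reads per rat.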

Other observations

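The other marker lists give the remaining cell types of the cortex. Over all tested genes, 8.19% were called higher and 10.6% lower in ZF against ZL. With treatment the shares were 1.39% and 1.75% relative to ZF rats, and 12.4% and 15.0% relative to ZL rats. Mesangial and juxtaglomerular markers had 2 of 6 called higher in ZF against ZL (Pdgfrb and Itga8), 2 lower in ZF-SGLT2i against ZF (Pdgfrb and Agtr1a), and in ZF-SGLT2i against ZL 2 higher, among them Gata3, and Agtr1a lower. In this last comparison Pdgfrb (limma, adjusted p = 0.31) and Itga8 (0.21) did not pass. Endothelial markers had 2 of 10 called higher in ZF against ZL (Eng and Tie1) and 2 in ZF-SGLT2i against ZL (Tek and Ehd3). Of 6 smooth muscle markers, Des alone was called in ZF against ZL, higher (log2 fold change 1.17, limma, adjusted p = 0.0020). Acta2, Myh11, Tagln, Cnn1 and Smtn did not pass there (adjusted p from 0.13 to 0.55). Tagln alone was called in ZF-SGLT2i against ZF, lower (-0.77, adjusted p = 0.044), and Des alone in ZF-SGLT2i against ZL, higher (0.73, adjusted p = 0.015). Of the 5 thick limb and distal tubule markers tested, Slc12a3, the thiazide-sensitive transporter, was higher and Umod lower in ZF-SGLT2i against ZL (log2 fold changes 0.79 and -0.60). Cidec, a lipid droplet protein of the adipocyte list, measured 22.1 CPM in ZL, 4.12 CPM in ZF and 2.99 CPM in ZF-SGLT2i rats and was called lower in both obese groups. Adipoq, the gene of that list with the highest CPM over the 12 rats, was not called in ZF against ZL (log2 fold change -0.31, limma, adjusted p = 0.11). Nor was it called in ZF-SGLT2i against ZL (0.04, adjusted p = 0.86). Macrophage markers summed to 72.5 ± 10.9, 95.1 ± 17.1 and 84.1 ± 28.6 CPM (SD, n = 4) in ZL, ZF and ZF-SGLT2i rats, lymphocyte markers to 1.98 ± 0.253, 2.50 ± 0.485 and 1.13 ± 0.432 CPM, and red blood cell markers to 19.3 ± 2.35, 24.8 ± 2.82 and 27.5 ± 5.16 CPM. Limma called no gene of these 3 lists. The unadjusted p was under 0.05 for 2 macrophage genes and 1 red blood cell gene in ZF against ZL, for 1 macrophage and 1 lymphocyte gene in ZF-SGLT2i against ZF, and for 1 lymphocyte and 1 red blood cell gene in ZF-SGLT2i against ZL. In this last comparison edgeR and DESeq2 each called 1 lymphocyte and 1 red blood cell gene, and DESeq2 called 1 red blood cell gene in ZF against ZL. Cd163, Cd3d, Plin1, Fabp4, Hbb-b1 and Alas2 were at 0 in at least 1 rat.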
